A study of Mus musculus with 24 samples.

Results

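The genes described here are the Rab GTPases of the mouse, the largest branch of the Ras superfamily of small GTP-binding proteins. They were taken from the gene table by symbol: every protein-coding gene whose name is Rab followed by a number, with at most a letter and a further digit. The rule used no measured value and found 59 genes among 55487, of which 21936 are protein-coding. Libraries of 4 kinds of sorted tissue macrophage were read, each from the genotype labelled Z165KO (KO below) and from wild-type (WT) mice. The types were the alveolar macrophages of the airways, the Kupffer cells that line liver sinusoids, brain microglia and macrophages of the spleen. Each of the 8 groups held 3 libraries made from the RNA of 100000 sorted cells. The labels name no allele behind Z165KO, no driver line, no age and no sort gate. They do not say that replicates came from separate animals, so p-values describe only how these libraries scatter, and part of that scatter may be technical.

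A Rab protein works as a molecular switch. Exchange factors load it with GTP on a membrane, where it gathers effectors that move, tether or fuse vesicles. GTPase-activating proteins turn it off, and a GDP dissociation inhibitor (GDI) carries the prenylated protein through the cytosol to its next membrane. Each compartment holds its own Rab proteins, so the set that a cell transcribes gives an inventory of its traffic routes. Macrophages depend on these routes to mature phagosomes, to recycle receptors and to release lysosome-related organelles and cytokines.

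Promoter sequence from RefSeq (GRCm38.p6, the build of mm10) was available for 48 of the 59 genes, as 60 promoters that run from 250 bases before the transcript start to 50 after it. The 6-base E-box CACCTG, the site bound by ZEB factors, was searched on both strands because the title of the series names Zeb2. It was present in 10 of 60 Rab promoters (16.7%) and in 19.7% of 20467 promoters of protein-coding genes. The E-box CACGTG of the MiT/TFE factors, which drive lysosomal genes, was present in 6 (10%, against 8.04%), and the PU.1 core GAGGAAGT in 2 (3.33%, against 3.18%). The MAF motif TGCTGAC was present in 1 (1.67%, against 4.26%) and the CRE TGACGTCA in 2 (3.33%, against 2.30%). No motif searched contains another. A match describes the sequence only.

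Promoters of 4 genes to which the results return are printed 5′ to 3′ with the matched motif in capitals. Rab19 (chr6:39381103-39381402, plus strand) and Rab27a (chr9:73044560-73044859, plus strand) hold the ZEB E-box, in Rab27a as its reverse complement. They were among the genes of lowest p between genotypes in alveolar macrophages, where neither was called. Rab3d, which had the lowest p there, was not among the genes found with this E-box. The share of Rab promoters with it was not above that of all promoters (16.7% against 19.7%), and a link between the motif and genotype was not tested. Rab20 (chr8:11478591-11478890, minus strand), the most abundant Rab transcript of splenic macrophages, holds the MiT/TFE E-box. Rab32 (chr10:10558158-10558457, minus strand), abundant in alveolar macrophages and Kupffer cells, holds the PU.1 core.
Rab19: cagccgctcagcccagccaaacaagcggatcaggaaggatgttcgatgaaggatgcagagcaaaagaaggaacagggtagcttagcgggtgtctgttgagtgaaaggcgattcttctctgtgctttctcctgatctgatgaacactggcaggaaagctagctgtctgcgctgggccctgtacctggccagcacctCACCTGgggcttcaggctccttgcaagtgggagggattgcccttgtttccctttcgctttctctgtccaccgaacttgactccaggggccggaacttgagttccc
Rab27a: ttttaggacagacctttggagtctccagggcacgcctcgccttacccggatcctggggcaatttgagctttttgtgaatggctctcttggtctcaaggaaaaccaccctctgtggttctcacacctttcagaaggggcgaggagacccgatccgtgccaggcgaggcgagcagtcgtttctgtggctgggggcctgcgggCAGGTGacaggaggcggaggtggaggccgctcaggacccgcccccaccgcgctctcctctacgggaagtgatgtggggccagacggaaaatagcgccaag
Rab20: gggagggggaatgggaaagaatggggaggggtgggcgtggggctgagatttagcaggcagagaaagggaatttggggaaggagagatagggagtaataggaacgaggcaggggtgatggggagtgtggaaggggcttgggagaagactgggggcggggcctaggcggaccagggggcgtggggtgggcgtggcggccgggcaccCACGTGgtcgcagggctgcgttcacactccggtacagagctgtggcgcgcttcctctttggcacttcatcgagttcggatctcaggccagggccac
Rab32: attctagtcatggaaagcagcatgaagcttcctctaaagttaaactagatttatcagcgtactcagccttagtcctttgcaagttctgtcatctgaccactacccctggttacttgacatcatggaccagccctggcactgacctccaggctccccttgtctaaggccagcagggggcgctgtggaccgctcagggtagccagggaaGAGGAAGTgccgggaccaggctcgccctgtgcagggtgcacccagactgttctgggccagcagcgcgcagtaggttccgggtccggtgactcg

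Total counts ranged from 50449347 to 65981787 per library. Microglial WT replicate 2 had 20646 genes with 10 counts or more, against 17220 and 18198 in replicates 1 and 3. Mitochondrial genes made up 0.317% of its counts, against 0.132% and 0.151%. The summed identity markers were highest in the labelled type. The sums there were 22136 to 32618 CPM (counts scaled to the library total) for the alveolar list and 15287 to 21082 for the Kupffer list. They were 32344 to 37243 CPM for the microglial list and 21559.6 to 25418 for the splenic list. In other types the sums reached at most 1403, 1436, 1233 and 13326 CPM in that order, the last in a Kupffer KO library. Most single markers also had their highest WT mean in the labelled type. Siglec1 and Cd163 (splenic list) and Marco (alveolar list) did not. Siglec1 averaged 157 CPM in splenic and 656 in Kupffer WT libraries. Zeb2, which the title of the series names, had 139, 126 and 142 CPM in KO against 297, 282 and 190 in WT alveolar macrophages (log2 −0.89 ± 0.19; edgeR adjusted p = 0.116), and its log2 difference lay between −0.04 and 0.12 in the other types. Marker sums of other cells differed with genotype as well. The 12 B cell markers summed to 7.95 to 9.40 CPM in KO against 87.1 to 175 in WT alveolar macrophages. Their sums were 50.8 to 123 CPM in KO against 761 to 1223 in WT Kupffer cells, and 66.3 to 116 in KO against 1305 to 1943 in WT splenic macrophages. Microglia held 507 to 675 in KO and 573 to 698 in WT. Pax5, which defines B cells, was at 0 in the KO alveolar, Kupffer and splenic libraries. The 12 neutrophil markers summed to 620 to 774 CPM in KO against 266 to 444 in WT alveolar macrophages, and to 643 to 856 in KO against 169 to 250 in WT splenic macrophages. The 21 genes of dissociation stress, which are induced while tissue is taken apart, summed to 9804 to 11190 CPM in KO against 11358 to 31215 in WT alveolar macrophages, and to 49442 to 67479 in KO against 37282 to 45061 in WT splenic macrophages. They overlapped between genotypes in Kupffer cells and microglia. In alveolar macrophages the 11 monocyte markers summed to 1350 to 2416 CPM in KO against 2621 to 3566 in WT, and the 10 epithelial markers to 1722 to 2093 in KO against 1152 to 1579 in WT. Most of the monocyte sum came from Fn1 (mean 523 CPM in KO, 1252 in WT) and Nr4a1 (1268 and 1575), which is also a stress gene. Most of the epithelial sum came from Krt19 (1261 and 984), Epcam (233 and 87.4), Cdh1 (226 and 120) and Sftpc (152 and 146). In both lists some of the remaining markers were lower in KO and some higher. In bulk samples, fewer cells of a type and less RNA per cell cannot be told apart.

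Most of the family was transcribed in all 4 macrophages. Of the 59 genes, 49 reached a group mean of 1 TPM (transcript abundance scaled by length and library total) in at least 1 group, 39 reached it in all 8 groups, and 28 reached 10 TPM in all 8. The 10 genes under 1 TPM in every group were Rab15, Rab17, Rab25, Rab27b, Rab33a, Rab36, Rab39b, Rab3c, Rab40b and Rab9b. No gene was at 0 in all libraries. Summed over the family, alveolar macrophages held 3936 ± 66.4 TPM in KO and 3926 ± 140 in WT (SD, n = 3), and Kupffer cells 3840 ± 207 in KO and 3530 ± 73.8 in WT. Splenic macrophages held 3303 ± 216 TPM in KO and 3475 ± 278 in WT. Microglia had the lowest sums, at 2706 ± 113 TPM in KO and 2636 ± 90.0 in WT.

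**Figure D1:**
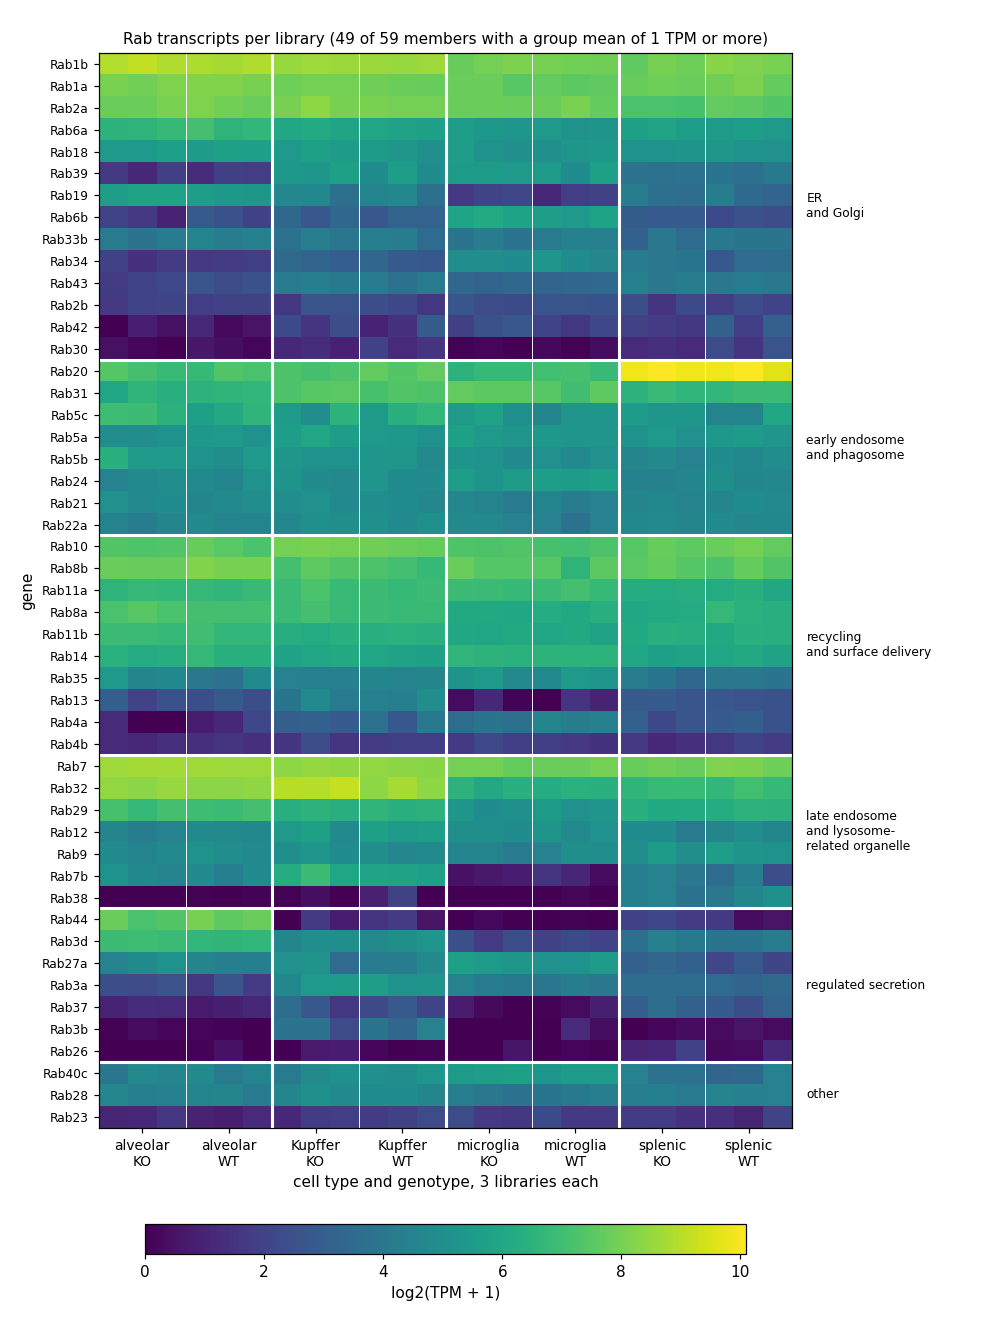
Each row is a Rab gene with a group mean of 1 TPM or more (49 of 59), ordered by role, and each column a library, 3 per group, with KO left of WT in each cell type. Colour is log2(TPM + 1). The columns of a cell type resemble each other across genotypes, and rows such as Rab20, Rab39, Rab6b, Rab7b and Rab44 change between cell types.

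By TPM, which allows levels to be compared between genes, the leading transcripts in the WT libraries were largely the same housekeeping Rab genes. Rab1b and Rab1a, which carry cargo from the endoplasmic reticulum (ER) to the Golgi, and Rab7, the switch of late endosomes and lysosomes, were among the 5 highest in every WT type. Rab1b stood first in alveolar macrophages (453 ± 29.2 TPM), Kupffer cells (380 ± 9.97) and microglia (248 ± 10.8). In alveolar macrophages Rab7 (394 TPM), Rab32 (327), Rab1a (281) and Rab8b (268) followed. In Kupffer cells Rab32 (367 TPM), Rab7 (328), Rab2a (256) and Rab1a (227) followed, and in microglia Rab2a (232), Rab7 (231), Rab1a (195) and Rab31 (165). Splenic macrophages departed from this order. There Rab20 alone stood at 939 ± 144 TPM, 27.0% of the summed Rab transcripts, ahead of Rab1b (287), Rab7 (260), Rab1a (240) and Rab10 (223). In the KO libraries Rab20 held 990 ± 86.5 TPM in splenic macrophages, 30.0% of the sum, and Rab32 led in Kupffer cells at 532 ± 46.0 TPM.

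**Figure D2:**
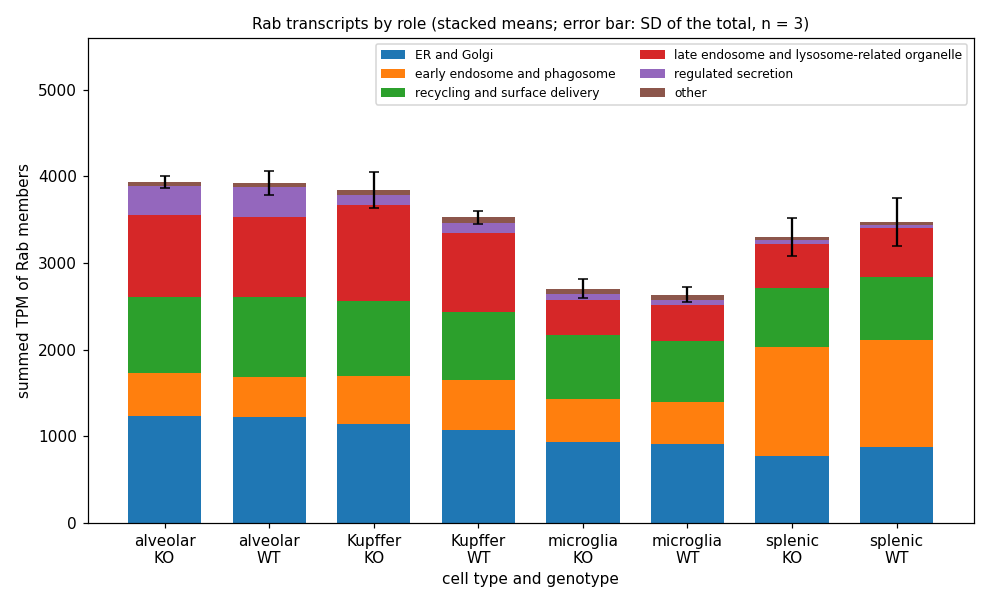
Bars give the summed TPM of Rab genes by role for each group, KO left of WT, as stacked means of 3 libraries, and error bars give the SD of the total. Early endosome and phagosome genes reach 1262 TPM in KO and 1235 in WT splenic macrophages, and late endosome genes reach 1118 in KO and 915 in WT Kupffer cells.

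The first comparison asked whether Rab transcripts differ between KO and WT within each macrophage. With edgeR's quasi-likelihood test, adjusted over all genes tested, no Rab gene was called in any of the 4 cell types. In alveolar macrophages 0 of 48 tested Rab genes passed an adjusted p of 0.05, where 0.317% of 17369 genes did. An unadjusted p under 0.05 was held by 5 (10.4%), against 12.5% of all genes tested. In Kupffer cells 0 of 50 passed, against 0.0629% of 19085 genes, and 3 had an unadjusted p under 0.05 (6%, against 6.94% of all genes). In microglia 0 of 48 passed, against 0% of 17880 genes. An unadjusted p under 0.05 was held by 1 Rab gene (2.08%) and by 794 of all genes (4.44%). In splenic macrophages 0 of 51 passed, against 0.747% of 17808 genes, and 7 had an unadjusted p under 0.05 (13.7%, against 11.7% of all genes). At such shares of genes passing the adjusted threshold, a count of 0 does not set the family apart from other genes. DESeq2 called 1 Rab gene in alveolar macrophages, 1 in Kupffer cells, 0 in microglia and 3 in splenic macrophages, each named below. It also called many more genes than edgeR over all genes tested, with counts given in the section on processing. Beside those counts the DESeq2 calls do not set the family apart either.

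The absolute log2 difference passed 1 for 3 of 48 Rab genes in alveolar macrophages, 0 of 50 in Kupffer cells, 2 of 48 in microglia and 6 of 51 in splenic macrophages. It did so for 13.6%, 11.1%, 9.92% and 14.4% of all genes tested, and for 11.8%, 8.65%, 8.52% and 12.6% of protein-coding ones. Rab genes had a median log2 KO over WT of 0.02 in alveolar macrophages, 0.05 in Kupffer cells, −0.07 in microglia and −0.01 in splenic macrophages, against medians between −0.01 and −0.00 over all genes tested. The median absolute log2 difference was 0.23, 0.20, 0.16 and 0.22 in the same order, against 0.30, 0.25, 0.24 and 0.28 over all genes. Over protein-coding genes it was 0.27, 0.23, 0.21 and 0.23, nearer to the Rab values. The 95% interval lay wholly between −1 and 1 for 32 of 48 Rab genes in alveolar macrophages, 34 of 50 in Kupffer cells, 36 of 48 in microglia and 33 of 51 in splenic macrophages. Over all genes tested 45.4%, 45.6%, 48.8% and 46.4% had such an interval, and those genes differ from the Rab genes in level. Over protein-coding genes the shares were 57.1%, 58.6%, 63.2% and 60.1%. For the other Rab genes the interval reached beyond that range, also for some abundant ones. In alveolar macrophages the interval ran from 0.10 to 1.34 for Rab5c, from −0.016 to 1.43 for Rab5b and from −0.062 to 1.69 for Rab35.

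**Figure D3:**
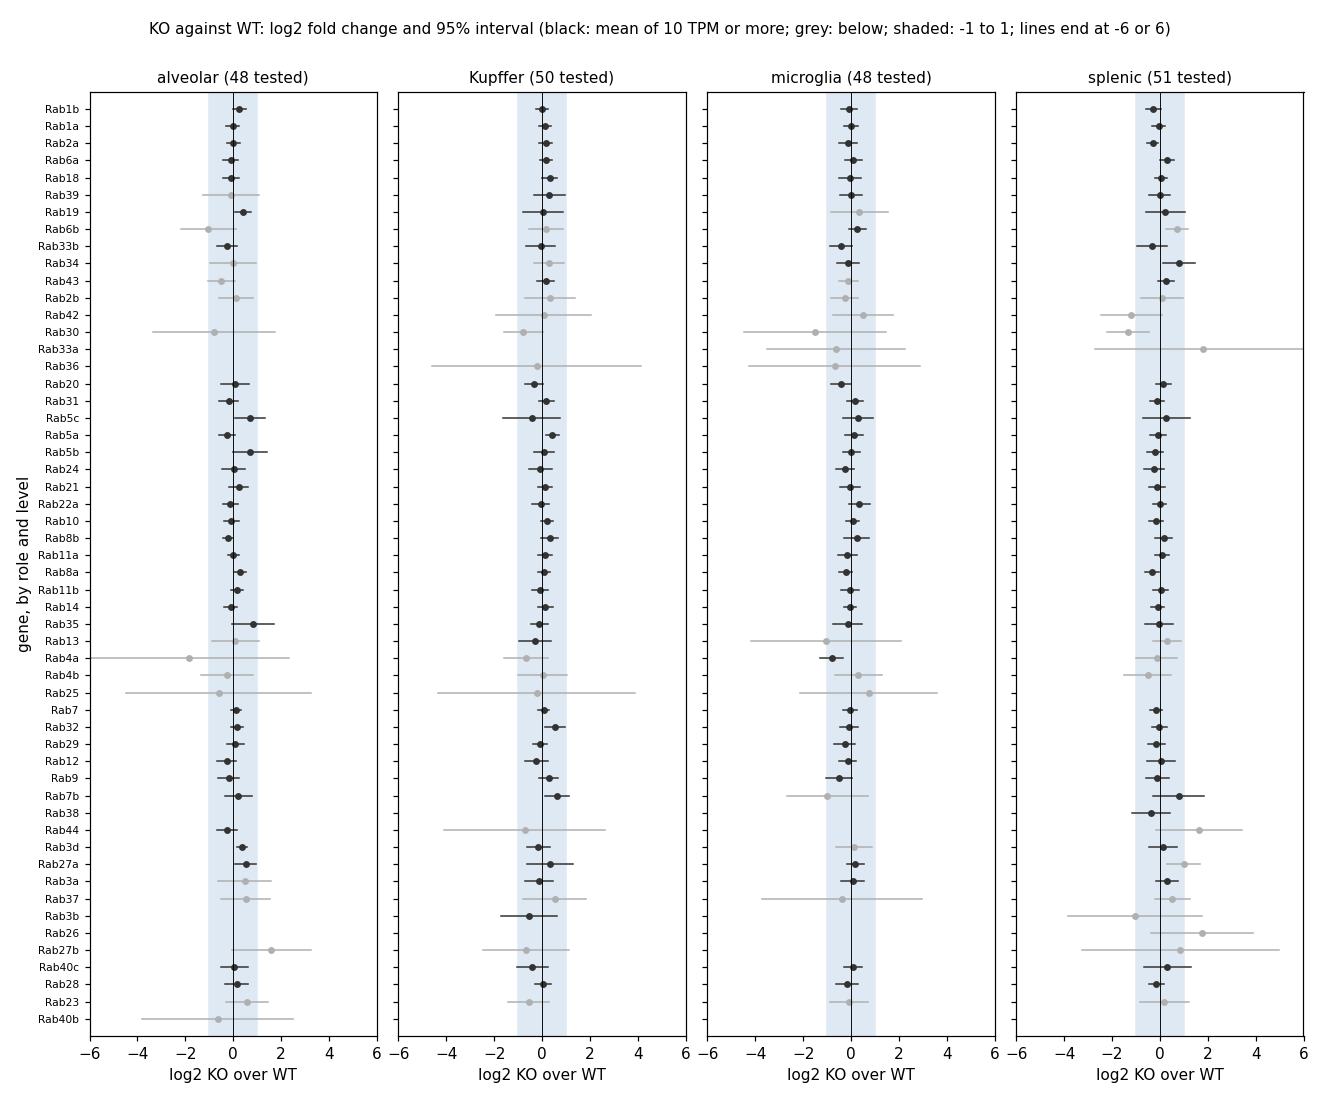
Points give the log2 difference of KO over WT for each tested Rab gene in the 4 cell types, and lines its 95% interval. Genes of 10 TPM or more (black) mostly lie close to 0 with short intervals, genes below that (grey) mostly have longer ones, and no gene passed the adjusted threshold.

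In alveolar macrophages the 3 genes of lowest p were all higher in KO by point estimate, and none was called. Here and below, genes picked by low p tend to separate the genotypes in the same libraries. A lack of overlap therefore adds no evidence to the p-value. Rab3d (ENSMUSG00000019066, chromosome 9, 21907491 to 21918192, minus strand), a Rab of secretory granules, had 169, 172 and 164 CPM in KO libraries against 132, 130 and 138 in WT. The genotypes did not overlap, and the log2 difference was 0.37 ± 0.09 (SE; 95% interval 0.15 to 0.59; unadjusted p = 0.00539, adjusted p = 0.172). DESeq2 called Rab3d (adjusted p = 0.00594), and over all alternatives its adjusted p ran from 0.00594 to 0.525. Rab19 (ENSMUSG00000029923) had 26.2, 28.4 and 29.8 CPM in KO against 23.1, 21.0 and 20.2 in WT, again without overlap (log2 0.42 ± 0.14; adjusted p = 0.290). Rab27a (ENSMUSG00000032202, chromosome 9, 73044854 to 73097629, plus strand), which docks secretory lysosomes and melanosomes at the cell surface, had 27.3, 36.4 and 45.3 CPM in KO against 27.8, 23.9 and 25 in WT. Its lowest KO library lay within the WT range (log2 0.53 ± 0.19; adjusted p = 0.312). The neutrophil marker sums given above were higher and the stress gene sums lower in the same KO libraries, and their part in these values was not tested.

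In Kupffer cells the 3 genes of lowest p were Rab5a, Rab32 and Rab7b, and none was called. Rab5a (ENSMUSG00000017831), the organiser of early endosome fusion, had 82.2, 98.8 and 82.6 CPM in KO against 68.1, 67.5 and 61.4 in WT, without overlap (log2 0.43 ± 0.11; unadjusted p = 0.00669, adjusted p = 0.368). DESeq2 called it (adjusted p = 0.0108, range over alternatives 0.0108 to 0.784). Rab32 (ENSMUSG00000019832, chromosome 10, 10545002 to 10558265, minus strand), which sends cargo to lysosome-related organelles and to pathogen vacuoles, had 381, 363 and 438 CPM in KO against 241, 327 and 253 in WT. All KO libraries lay above all WT libraries (log2 0.55 ± 0.18; interval 0.13 to 0.97; adjusted p = 0.561). Rab7b (ENSMUSG00000052688), a late endosomal Rab that lowers Toll-like receptor signalling, had 109, 175 and 89.2 CPM in KO against 83.1, 80.4 and 76.8 in WT (log2 0.63 ± 0.21; adjusted p = 0.601). The KO libraries spread widely, and the lowest of them lay just above the WT range.

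In microglia the lowest p belonged to genes with lower KO values. Rab4a (ENSMUSG00000019478), which returns receptors quickly from early endosomes to the surface, had 5.74, 7.29 and 6.58 CPM in KO against 12.5, 11.1 and 10.9 in WT. The groups did not overlap, and the log2 difference was −0.81 ± 0.21 (interval −1.30 to −0.32; unadjusted p = 0.0050, adjusted p = 0.791). Rab20 had 37.7, 45.3 and 45.8 CPM in KO against 54.7, 68.8 and 47.9 in WT (log2 −0.41 ± 0.18; adjusted p = 0.987). Rab33b, a Golgi Rab that also binds the autophagy machinery, had 14.6, 19.9 and 14.6 CPM in KO against 18.7, 25.4 and 21.9 in WT, with overlapping groups (log2 −0.42 ± 0.20; adjusted p = 0.987).

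In splenic macrophages the 3 genes of lowest p were Rab30, Rab6b and Rab27a, and none was called. Rab30 (ENSMUSG00000030643), a Golgi Rab, had 4.14, 4.88 and 4.11 CPM in KO against 12.3, 5.77 and 16.0 in WT. The groups did not overlap, but WT spread widely (log2 −1.33 ± 0.38; unadjusted p = 0.00926, adjusted p = 0.232; DESeq2 adjusted p = 0.0279). The B cell marker sums were lower in the same KO libraries, and their part in the Rab30 values was not tested. Rab6b, a Golgi Rab first known from neurons, had 10.8, 10.4 and 10.9 CPM in KO against 5.87, 7.45 and 6.84 in WT (log2 0.71 ± 0.20; adjusted p = 0.235; DESeq2 adjusted p = 0.0145). Rab27a had 9.19, 11.1 and 9.80 CPM in KO against 4.22, 7.10 and 4.21 in WT (log2 0.99 ± 0.29; interval 0.31 to 1.67; adjusted p = 0.246; DESeq2 adjusted p = 0.0322). For both genes every KO library lay above every WT library. The neutrophil marker and stress gene sums were higher in the same KO libraries, and their part in these values was not tested.

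**Figure D4:**
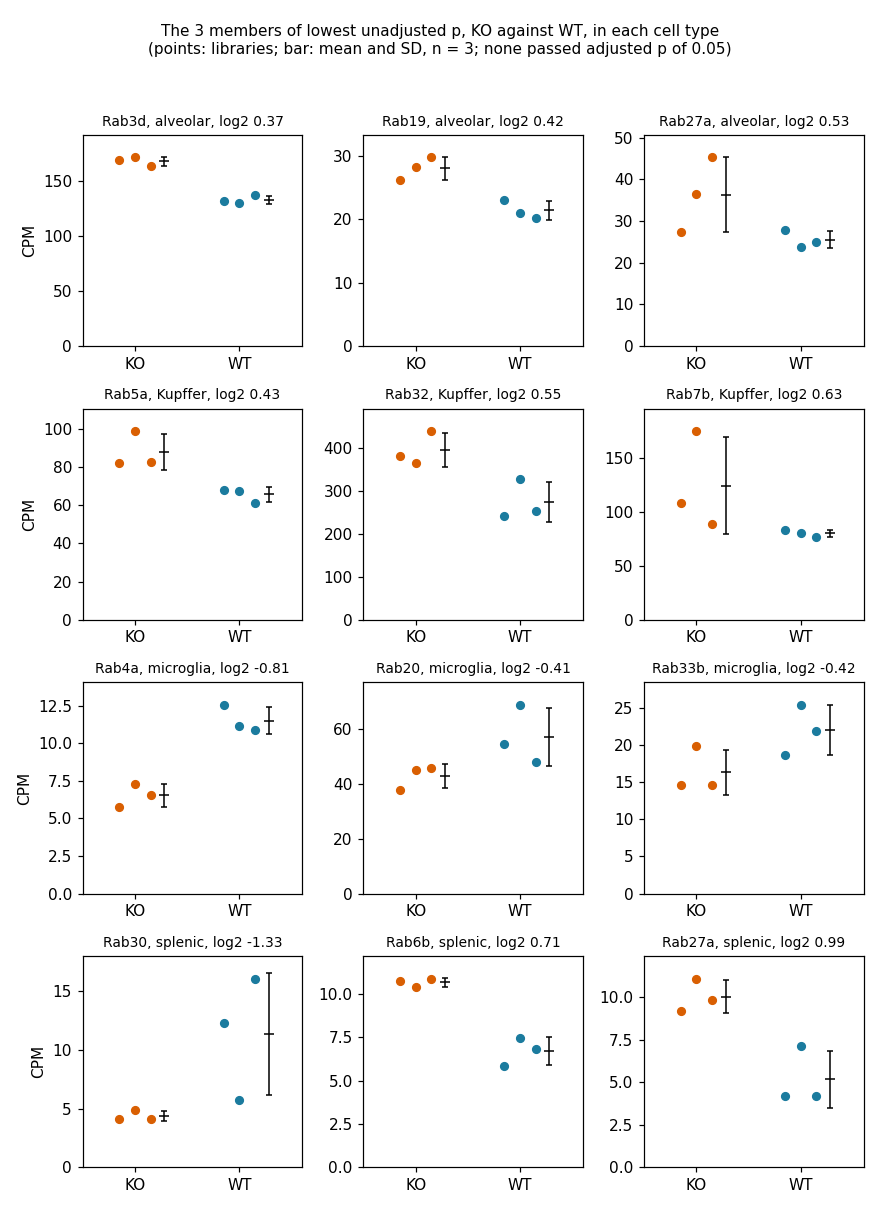
Each panel plots CPM by library for the 3 genes of lowest unadjusted p in a cell type (rows), KO left of WT, with the mean and SD of 3 libraries. The 2 genotypes do not overlap for Rab3d and Rab19 (alveolar), Rab5a, Rab32 and Rab7b (Kupffer), Rab4a and Rab20 (microglia) or any of the 3 splenic genes, and none passed the adjusted threshold. The choice by lowest p in these same libraries favours such separation.

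A fit of all 24 libraries tested whether the genotype difference itself differs between the cell types and whether it has a common mean. In the interaction test 0 of 56 Rab genes were called, against 0.524% of 24030 genes, and 8 had an unadjusted p under 0.05. The highest p of these 8, 0.0427 for Rab40b, ranked 2464 from the lowest among all 24030 genes. DESeq2 called 3 of these 8, and its counts over all genes for the interaction and the mean effect are given in the section on processing. The lowest p was that of Rab8a, which delivers vesicles to the plasma membrane and takes part in Toll-like receptor signalling (unadjusted p = 0.000816, adjusted p = 0.0912). Rab8a had 229, 269 and 226 CPM in KO against 197, 207 and 203 in WT alveolar macrophages, and 94.1, 104 and 109 in KO against 155, 123 and 120 in WT splenic macrophages. Its KO values were thus all higher in the alveolar set and all lower in the splenic set, with no overlap in either, and DESeq2 called the difference (adjusted p = 0.000542). For the mean effect 0 of 56 were called, against 0.624% of all genes (0.154% higher and 0.47% lower in KO). An unadjusted p under 0.05 was held by 6 (10.7%), against 9.79% of all genes, and DESeq2 called 2. Rab27a had the lowest p, with a log2 of 0.51 ± 0.15 (unadjusted p = 0.00335, adjusted p = 0.186). Its Kupffer libraries had 41.3, 41.8 and 13.2 CPM in KO against 20.8, 22.8 and 32.5 in WT, and its microglial libraries 58.4, 50.8 and 46.9 in KO against 39.9, 46.8 and 51.8 in WT. Both of these pairs overlapped.

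The second comparison asked how the 4 macrophages differ in their Rab transcripts, first in the WT libraries and then in the KO libraries, which the WT test did not use. In WT, 37 of 54 tested Rab genes (68.5%) differed between cell types by an F test, against 52.3% of 21679 genes and 61.8% of the protein-coding genes tested. In KO, 41 of 54 (75.9%) differed, against 56.9% of 21202 genes and 67.0% of the protein-coding genes. Of 53 genes tested in both, 32 were called in both, which is 86.5% of the WT calls and 78.0% of the KO calls. The labels do not say whether cell types with the same number came from the same mice. Marker sums moved with cell type too. The 10 endothelial markers summed to 1966 to 4624 CPM in KO and 4570 to 5622 in WT Kupffer cells, and to at most 879 in any other library, with none of them at 0 in a whole group. The 10 erythroid markers summed to 16060 to 26685 CPM in KO and 5615 to 21859 in WT splenic macrophages, and to at most 205 elsewhere. The stress genes reached 66390 to 69570 CPM in KO and 65062 to 73083 in WT microglia. The part of these sums in the splenic and microglial levels below was not tested.

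Each WT type was also set against the mean of the other 3. Microglia stood furthest out, with 12 Rab genes higher and 20 lower, against 21.7% and 20.3% of all genes (41.9% together). Alveolar macrophages had 15 higher and 12 lower (17.3% and 14.7% of all genes, 32% together), Kupffer cells 11 higher and 3 lower (15.2% and 7.58%, 22.8% together), and splenic macrophages 8 higher and 6 lower (14.5% and 9.69%, 24.2% together). In the KO libraries microglia had 11 higher and 22 lower (22.3% and 21.2% of all genes, 43.5% together), and alveolar macrophages 18 higher and 11 lower (20.6% and 19.5%, 40.1% together). Kupffer cells had 13 higher and 3 lower in KO (15.7% and 7.79%, 23.5% together), and splenic macrophages 9 higher and 12 lower (17.4% and 11.4%, 28.8% together). Protein-coding genes were called more often than all genes, in WT at 38.8% (alveolar), 28.3% (Kupffer), 47.3% (microglia) and 30% (splenic). In KO their shares were 46.9%, 29.5%, 49.7% and 35.9% in the same order. Of the genes tested in both genotypes, 23 alveolar, 10 Kupffer, 27 microglial and 10 splenic contrasts were called in both, all with the same sign. These contrasts share libraries with each other, so a gene that is high in a single type lowers the contrasts of the other 3. Without a call in the F test, Rab18 was called higher in alveolar macrophages, Rab2b higher and Rab28 lower in microglia, and Rab9 higher in splenic macrophages.

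**Figure D5:**
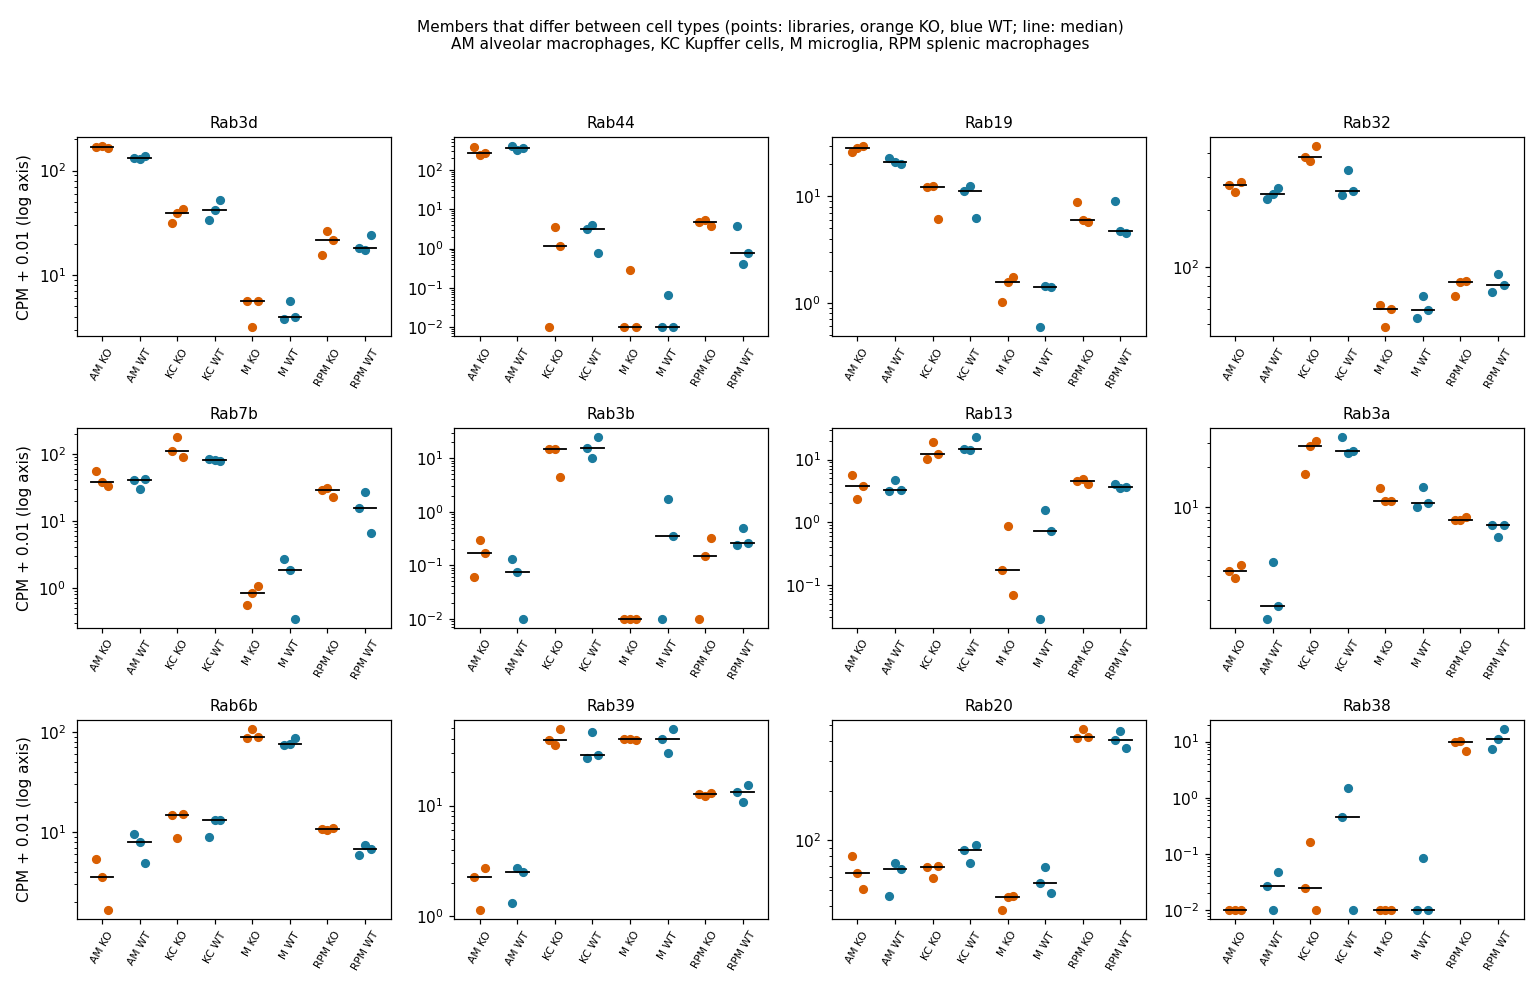
Points give CPM per library on a log axis, with a small constant added so that 0 can be drawn, for 12 Rab genes in the 8 groups, orange KO left of blue WT, and lines give medians. Rab3d, Rab44 and Rab19 are highest in alveolar macrophages, Rab32, Rab7b, Rab3b, Rab13 and Rab3a in Kupffer cells, Rab6b in microglia, and Rab20 and Rab38 in splenic macrophages, in both genotypes.

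Among the early endosome and phagosome genes, Rab20 carried the largest difference. Rab20 (ENSMUSG00000031504, chromosome 8, 11453518 to 11478710, minus strand) is known in macrophages from phagosome maturation. Splenic WT libraries had 406, 459 and 360 CPM, against 46.0, 73.0 and 66.5 in alveolar, 87.6, 73.3 and 93.4 in Kupffer and 54.7, 68.8 and 47.9 in microglial WT libraries. Every splenic library lay above every other library, and the mean was 6.02-fold that of the other 3 types (log2 2.72 ± 0.15; adjusted p = 3.49e-07). The KO libraries of the spleen had 414, 472 and 422 CPM (log2 3.07 ± 0.14 against the other 3 KO types; adjusted p = 1.19e-07). Of the exonic bases of Rab20, 25.6% are shared with a gene on the opposite strand, whose reads cannot be told apart here because the strand of counting is not given in the sources used. Rab31, which moves cargo between the trans-Golgi and endosomes, varied far less. Microglial WT libraries had 206, 168 and 226 CPM and alveolar ones 105, 119 and 127, the highest and lowest means of the 4 types.

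The 3 Rab5 genes, the core of the early endosome, were not called between WT types but were called between KO types (F test adjusted p = 0.0362 for Rab5a, 0.00769 for Rab5b and 0.0128 for Rab5c). Rab5a differed by 1.04-fold between its highest and lowest WT mean (68.0 CPM in splenic macrophages and 65.3 in microglia; adjusted p of the F test = 0.375), the smallest span of any member with a computable ratio. Rab5b spanned 1.33-fold (adjusted p = 0.422), Rab21 1.34-fold (adjusted p = 0.218; in KO 0.0281) and Rab5c 2.29-fold with wide spread (adjusted p = 0.129). Rab22a spanned 1.69-fold and was called in WT (adjusted p = 0.0416; in KO not called, 0.209), and Rab24, an autophagy Rab, was highest in microglia and called (adjusted p = 0.00281; in KO 0.0106). Of the exonic bases of Rab24, 62.4% overlap another gene. Rab17 was not tested.

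Of 7 tested late endosome and lysosome-related genes, 5 were called lower and none higher in WT microglia, where 20.3% of all genes were lower and 21.7% higher. In WT alveolar macrophages 4 were called higher and 1 lower (17.3% and 14.7% of all genes), and in WT Kupffer cells 3 higher and none lower (15.2% and 7.58%). Rab38, at levels near 0 in both, is 1 of the 5 lower in microglia and the 1 lower in alveolar macrophages. Its microglial call was lost in 9 of 12 fits that left out a library (adjusted p of 0.0534 to 0.152 in those fits) and its alveolar call in 5 of 12 (0.0521 to 1). Between KO types 5 were lower in microglia (21.2% of all genes), 4 higher in alveolar macrophages (20.6%) and 2 higher in Kupffer cells (15.7%), and Rab38 was among none of these. Rab32 had 241, 327 and 253 CPM in Kupffer and 229, 244 and 262 in alveolar WT libraries, against 53.8, 71.1 and 59.4 in microglial and 74.4, 92.8 and 81.2 in splenic ones. The Kupffer and alveolar libraries overlapped each other and lay above all the rest, and the microglial libraries lay below all the rest. Against the other 3 types the microglial log2 was −1.47 and the Kupffer log2 1.18. Rab29, a Rab of lysosomal stress known as a partner of Lrrk2, ran from alveolar macrophages (58.9 ± 5.91 CPM) down to microglia (17.8 ± 1.6).

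Rab7b was the late endosomal gene with the widest range. Kupffer WT libraries had 83.1, 80.4 and 76.8 CPM, against 39.9, 29.4 and 42.3 in alveolar, 2.65, 1.85 and 0.335 in microglial and 15.7, 26.7 and 6.56 in splenic WT libraries. All 4 types were apart from their neighbours, and the highest mean was 49.7-fold the lowest. The Kupffer contrast was 2.84 ± 0.42 on the log2 scale (adjusted p = 0.000523) and the microglial one −4.42 ± 0.62 (adjusted p = 0.000197). In the KO libraries microglia had 0.545, 0.833 and 1.07 CPM and Kupffer cells 109, 175 and 89.2. Its relative Rab7 did not follow it, with a span of 1.71-fold. By TPM, Rab7b made up 14.2% of the Rab7 and Rab7b total in WT Kupffer cells, 6.01% in alveolar macrophages, 4.06% in splenic macrophages and 0.485% in microglia.

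Rab38, the relative of Rab32 that acts beside it in melanosomes, was a splenic transcript. Splenic libraries had 9.68, 10.3 and 6.88 CPM in KO and 7.52, 11.3 and 16.8 in WT. Kupffer libraries reached at most 0.151 in KO and 1.49 in WT, and no alveolar or microglial library reached 0.1 CPM. All splenic libraries lay above all others (WT contrast adjusted p = 0.000213). No fold is given, because the other groups lie near 0. By TPM, Rab38 made up 17.3% of the Rab32 and Rab38 total in WT splenic macrophages and at most 0.316% in the other WT types. Rab9, Rab12 and Rab9b complete the group: Rab12 was called higher in WT Kupffer cells, Rab9 higher in WT splenic macrophages, and Rab9b was not tested.

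Regulated secretion genes had the steepest differences. Rab44, an atypical long Rab with EF hands, had 402, 319 and 361 CPM in alveolar WT libraries, against 3.07, 3.91 and 0.77 in Kupffer, 0, 0.0573 and 0 in microglial and 3.68, 0.402 and 0.746 in splenic ones. The KO alveolar libraries had 371, 242 and 276 CPM. Every alveolar library lay far above every other, by 257-fold in the WT means (adjusted p = 4.9e-07). Rab3d had 132, 130 and 138 CPM in alveolar WT libraries, against 34.0, 41.8 and 51.9 in Kupffer, 3.78, 5.68 and 3.98 in microglial and 18.1, 17.5 and 24.2 in splenic ones. The 4 types were apart from each other, and the alveolar contrast was 3.09 ± 0.15 on the log2 scale (adjusted p = 7.77e-08; in KO 3.43 ± 0.18, adjusted p = 1.46e-07). The microglial contrast of Rab3d was −3.38 ± 0.21 (adjusted p = 3.76e-07).

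The other Rab3 genes, which dock synaptic and secretory vesicles, were arranged differently. Rab3a had 33.2, 25.4 and 26.3 CPM in Kupffer WT libraries, against 1.43, 3.84 and 1.79 in alveolar, 9.90, 14 and 10.6 in microglial and 7.29, 5.90 and 7.30 in splenic ones. Kupffer libraries were highest and alveolar ones lowest, without overlap with the rest (log2 2.13 ± 0.26 and −2.45 ± 0.33; adjusted p = 0.00012 and 0.000171). Rab3b had 15.2, 10.2 and 24.3 CPM in Kupffer WT libraries and at most 1.70 in any other WT library (adjusted p = 0.000437). In KO, Kupffer libraries had 15.1, 14.7 and 4.45 CPM and microglia 0 in all 3, a level under 0.0187 CPM over the group by a floor of 3 counts. The endothelial marker sums of the KO Kupffer libraries were 3778, 4624 and 1966 CPM, lowest in the library with the least Rab3b, and their part in the Rab3b values was not tested. By TPM, Rab3d made up 96.7% of the Rab3 total in WT alveolar macrophages, 59.9% in splenic macrophages, 36.9% in Kupffer cells and 16.6% in microglia, where Rab3a made up 80.6%. Rab3c was not tested.

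Rab27a ran the other way from Rab38. Splenic WT libraries had 4.22, 7.10 and 4.21 CPM, against 27.8, 23.9 and 25 in alveolar, 20.8, 22.8 and 32.5 in Kupffer and 39.9, 46.8 and 51.8 in microglial WT libraries. The splenic libraries lay below and the microglial ones above all others, and alveolar and Kupffer libraries overlapped. The splenic contrast was −2.47 ± 0.23 on the log2 scale (adjusted p = 1.91e-05). Rab27a made up 97.1% or more of the Rab27 TPM in every group by mean, and its relative Rab27b stayed at or below 3.26 CPM in every library. Rab37, a Rab of secretory granules, had 11.1, 7.01 and 14.2 CPM in splenic and 6.20, 10.2 and 5.85 in Kupffer WT libraries, against 1.04, 1.48 and 2.18 in alveolar and 0.0932, 0.440 and 1.38 in microglial ones (splenic contrast 2.58 ± 0.51; adjusted p = 0.00327; microglial −2.92 ± 0.68; adjusted p = 0.00536). Rab26 was not called in WT (adjusted p of the F test = 0.18) and was called in KO (0.0407).

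Of the 17 ER and Golgi genes, 16 were tested between WT types and 10 were called, a share near the 61.8% of protein-coding genes. Rab6b showed the clearest microglial rise. Microglial WT libraries had 73.3, 75.3 and 87.2 CPM, against 9.49, 8.01 and 4.88 in alveolar, 8.99, 13.3 and 13.1 in Kupffer and 5.87, 7.45 and 6.84 in splenic ones. All microglial libraries lay above all others, 9.07-fold by the means (log2 3.29 ± 0.19; adjusted p = 2.15e-07; in KO 3.59 ± 0.27, adjusted p = 1.68e-06). Its relative Rab6a ran opposite, with 157, 115 and 125 CPM in alveolar WT libraries and 48.1, 46.1 and 41.7 in microglial ones. Rab6b thus made up 56.2% of the Rab6 TPM in WT microglia, against 11.5% in Kupffer cells, 8.63% in splenic macrophages and 4.0% in alveolar macrophages.

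Rab39 was highest in microglia and Kupffer cells and Rab34 in microglia, and both were lowest in alveolar macrophages. Rab39, which acts on phagosomes and autophagy, had 40.4, 30.1 and 49.1 CPM in microglial and 27.0, 46.6 and 28.4 in Kupffer WT libraries, against 1.31, 2.70 and 2.49 in alveolar and 13.2, 10.8 and 15.3 in splenic ones. Microglia and Kupffer cells overlapped, and all alveolar libraries lay below all others (alveolar log2 −3.59 ± 0.34; adjusted p = 1.06e-05; microglial 2.08 ± 0.24; adjusted p = 4.98e-05). Rab34, known from lysosome positioning and ciliogenesis, had 27.7, 24.3 and 17.9 CPM in microglial WT libraries, against 1.62, 1.95 and 2.11 in alveolar, 6.74, 5.03 and 4.52 in Kupffer and 4.43, 7.69 and 8.35 in splenic ones. The microglial contrast was 2.56 ± 0.23 on the log2 scale (adjusted p = 5.44e-06) and the alveolar one −2.34 ± 0.29 (adjusted p = 8.96e-05).

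Rab19 had 23.1, 21.0 and 20.2 CPM in alveolar WT libraries, against 11.2, 12.6 and 6.33 in Kupffer, 0.578, 1.41 and 1.40 in microglial and 9.13, 4.68 and 4.48 in splenic ones. Alveolar libraries were highest and microglial ones lowest, without overlap (alveolar log2 2.39 ± 0.29; adjusted p = 7.04e-05; microglial −3.22 ± 0.39; adjusted p = 6.51e-05). Rab30 had 12.3, 5.77 and 16.0 CPM in splenic WT libraries, against 1.67, 0.923 and 0.369 in alveolar, 8.68, 4.03 and 6.13 in Kupffer and 0.503, 0.115 and 0.730 in microglial ones (splenic log2 3.12 ± 0.49; adjusted p = 0.000756; microglial −3.12 ± 0.67; adjusted p = 0.00346). The B cell marker sums were highest in the WT spleen libraries too, and their part in the Rab30 level was not tested. Rab42 was called lower in WT alveolar macrophages at low levels (0.273, 0.0495 and 0.111 CPM, against at most 1.83 elsewhere; log2 −2.68 ± 0.79; adjusted p = 0.0232), a call lost without alveolar WT replicate 2 (adjusted p = 0.0978) or 3 (0.0926). Rab1a, Rab1b and Rab6a were called higher in alveolar macrophages and lower in microglia. Rab18, Rab2a, Rab2b, Rab33a, Rab33b and Rab36 were not called in the WT F test. Rab2a was called between KO types (adjusted p = 0.000232), higher in alveolar macrophages and Kupffer cells and lower in splenic macrophages. Rab39b was not tested, and Rab43 was called higher in Kupffer cells and splenic macrophages, with 75.4% of its exonic bases shared with another gene.

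All 12 genes of recycling and surface delivery were tested between WT types and 9 were called, where 52.3% of all genes and 61.8% of protein-coding genes were. Rab13, known from epithelial junctions, had 14.6, 14.2 and 22.6 CPM in Kupffer WT libraries, against 3.09, 4.70 and 3.31 in alveolar, 0.0186, 1.57 and 0.710 in microglial and 4.07, 3.51 and 3.64 in splenic ones. Kupffer libraries were highest and microglial ones lowest, without overlap (log2 2.80 ± 0.58 and −2.98 ± 0.78; adjusted p = 0.00453 and 0.0101). The endothelial marker sums were also highest in Kupffer libraries, and their part in the Rab13 values was not tested. Rab4a had 12.5, 11.1 and 10.9 CPM in microglial WT libraries, against 0.410, 0.693 and 1.94 in alveolar, 6.81, 3.25 and 8.93 in Kupffer and 3.52, 3.93 and 2.77 in splenic ones (microglial log2 2.11 ± 0.38; adjusted p = 0.00115; alveolar −2.65 ± 0.50; adjusted p = 0.00181). In the KO libraries Rab4a was not called higher in microglia, where it had 5.74, 7.29 and 6.58 CPM, but it passed under DESeq2 (adjusted p = 0.0477) and without alveolar KO replicate 1 (6.97e-06), 2 (0.0466) or 3 (0.0454). The interaction test of genotype and cell type did not call Rab4a (adjusted p = 0.875).

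The abundant recycling genes moved within narrow limits. Rab14, of the trans-Golgi and recycling endosome, spanned 1.63-fold between its highest WT mean (399 ± 29.5 CPM, microglia) and its lowest (244 ± 6.11, Kupffer cells), and it was called in 3 of the 4 types. Rab8b spanned 2.04-fold and was higher in alveolar macrophages (404 ± 8.40 CPM), Rab8a 1.81-fold, Rab11b 1.75-fold, Rab11a 1.70-fold and Rab10, which delivers Toll-like receptors to the surface, 1.54-fold. Rab35, of fast recycling, was called higher in microglia. Rab4b, Rab15 and Rab25 were not called. In the remaining group Rab23 was called lower in alveolar macrophages, Rab40c higher in microglia and lower in splenic macrophages and Rab28 lower in microglia, while Rab40b was not tested.

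The regulators that load, unload and read Rab proteins were counted from lists. Between genotypes, no gene of prenylation and GDI function (14 tested in each type) and no GTPase-activating protein (33 or 34 tested) was called in any cell type. Of the exchange factors (36 or 37 tested) only Dennd5b was called, in splenic macrophages, and of the effectors (51 to 56 tested) none was. Over all genes tested, 0.317% were called in alveolar macrophages, 0.0629% in Kupffer cells, 0% in microglia and 0.747% in splenic macrophages. At such shares these counts do not set the lists apart from other genes. Dennd5b, a DENN-domain exchange factor, had 0.217, 0.271 and 0.158 CPM in KO against 7.09, 6.03 and 7.27 in WT spleen libraries (log2 −4.92 ± 0.37; adjusted p = 0.00581). The B cell marker sums were lower in the same KO libraries, and their part was not tested. In the mean over the 4 types 0.624% of all genes were called. Lrrk2, a kinase that phosphorylates Rab proteins, was the 1 gene of the 4 lists called there (log2 −1.93 ± 0.43, adjusted p = 0.0417). Its spleen libraries had 11.9, 16.9 and 13.9 CPM in KO against 51.9, 25.2 and 40.6 in WT. Its microglial libraries had 0, 0 and 0.0396 in KO against 0, 1.24 and 1.40 in WT, so the size of this mean depends on counts near 0. The part of the B cell marker sums in the Lrrk2 values was not tested.

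Between the WT cell types, the F test called 8 of 14 genes of prenylation and GDI function and 25 of 37 exchange factors. It called 24 of 35 GTPase-activating proteins and 35 of 58 effectors, against 52.3% of all genes and 61.8% of protein-coding genes. In the KO libraries 8 of 14, 30 of 37, 27 of 35 and 41 of 59 were called in the same order. The shares there were 56.9% of all genes and 67.0% of protein-coding genes. The prenylation and GDI list was higher in WT microglia for 7 genes and lower for none, where 21.7% of all genes were higher and 20.3% lower, with a median log2 of 0.41 over its 14 genes, against 0.02 over all genes. In KO microglia 7 were higher and 1 lower (22.3% and 21.2% of all genes).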

How the data were processed

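The deposited table of the whole series held, for each of 24 libraries, a count per gene, the count per library total (CPM) and an abundance that also allows for length (TPM). The authors used the mm10 build with DRAGEN, STAR, Subread, featureCounts and Salmon, per the submitters' processing notes, which state no role for any of them. The counts deposited by the authors are whole numbers and not normalized. The CPM deposited by the authors matched a recalculation from the counts to within 4.73e-11. The deposited TPM values are scaled by length and served only to compare genes. In 4 deposited columns of splenic TPM, repeated rows took the column sum past the limit of that unit, so they were read as a signal. The table had 55774 rows, of which 287 were repeats and were dropped. No source used here says whether counting was strand-specific.

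Groups and replicate numbers came from each sample's labels. KO was tested against WT within each type (6 libraries), cell types within a genotype (12), and interaction and mean effect in all 24, with edgeR 4.0.16 in R 4.3.3 (two-sided quasi-likelihood test, TMM scaling, filterByExpr with a minimum count of 10) and a Benjamini-Hochberg adjusted p under 0.05 over all genes tested. Each adjusted p comes from that test except where DESeq2 1.42.0 is named. Log2 differences carry standard errors (SE), and levels are CPM unless TPM is written. An exact permutation test of 3 libraries against 3 cannot go below 0.1, so none was used. The script was tested on simulated data. Replicates of a group differed by more than sampling noise in every pair (smallest chi-square per degree of freedom 32.7). Reads carry no molecular identifiers, so floors cover counting error only. Coordinates are from GENCODE on mm10. The members and gene lists were chosen with earlier results of these data known. Genes were named by rule: every member by role, with values per library for the 3 of lowest p between genotypes in each type, for members called in a WT type with an absolute log2 of 2 or more and 5 TPM in the highest type, for the 5 most abundant in each type and for the pairs Rab27a and Rab27b, Rab32 and Rab38, and Rab7 and Rab7b. Rab8a, Rab6a, Rab5c and others named with values were chosen after their values were seen. Alternatives were DESeq2, RLE scaling, no low-count filter, the replicate number as a block, a fit of all 24 libraries and leaving out each library.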

Additional observations from a re-analysis of the deposited data

How the results depend on the processing

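Genes called between genotypes depended strongly on the tool and the filter. Without the low-count filter 163 genes were called in alveolar macrophages, 76 in Kupffer cells, 13 in microglia and 330 in splenic macrophages. DESeq2, run on the same filtered genes as edgeR, called 922, 413, 93 and 903 in the same order, 957 in the interaction and 634 in the mean effect. The filter had kept 17369, 19085, 17880 and 17808 genes in that order, and 24030 for the interaction and the mean effect. The fit of all 24 libraries called 297 in alveolar macrophages, 48 in Kupffer cells and 19 in microglia. No correlation of deviations between libraries of the same number passed 0.1 (−0.0403 to 0.0363 for KO and WT of a type, −0.0203 to 0.0729 between types). With 3 libraries per group this cannot tell whether equal numbers share animals or days. The main tests left the numbers out. With the replicate block 0 genes were called in alveolar macrophages, 0 in Kupffer cells, 10 in splenic macrophages and 61 in the interaction, and no Rab gene was called between genotypes. Leaving out each library gave 0 to 29 genes in alveolar macrophages, 0 to 15 in Kupffer cells, 0 to 1 in microglia, 18 to 90 in splenic macrophages and 74 to 159 in the interaction.

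Rab genes called by DESeq2 were 1 in alveolar macrophages (Rab3d), 1 in Kupffer cells (Rab5a), 3 in splenic macrophages (Rab30, Rab27a and Rab6b), 3 in the interaction (Rab8a, Rab3b and Rab43) and 2 in the mean effect (Rab15 and Rab27a). Leaving out each library gave 0 to 1 Rab genes in the interaction (Rab4a, without alveolar KO replicate 1) and 0 to 1 in the mean effect (Rab4a without that library, Rab27a without Kupffer KO replicate 3). Rab genes called in Kupffer cells against the other types ran from 9 (without replicate 3) to 15 in WT and from 10 (without replicate 2) to 18 in KO, and in splenic KO libraries from 13 (without replicate 2) to 23. The alveolar contrast of Rab3b in the KO libraries, not called, turned sign under DESeq2 (−0.20), the replicate block (−0.044), and without alveolar KO replicate 2 (−0.55), Kupffer KO replicate 3 (−0.024) or splenic KO replicate 1 (−0.10), with 0.50 as the highest value when a library was left out. The cause was not tested. For single genes, 896 of 928 values of cell type contrasts kept their direction and side of the threshold. Of the genotype differences 127 of 132 did. All 12 genotype differences began as not called, and most alternatives had fewer libraries, so this share does not measure stability. The 5 that changed were the DESeq2 calls of Rab3d, Rab5a, Rab30, Rab6b and Rab27a. Levels near 0 (Rab38, Rab44, Rab3b) limit any fold by depth.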

Other observations

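Some regulators of Rab proteins differed between the macrophages. Hps4, a subunit of the exchange factor for Rab32 and Rab38, had 345, 307 and 297 CPM in microglial WT libraries, against 62.8, 51.6 and 61.9 in alveolar, 29.7, 39.8 and 32.4 in Kupffer and 42.6, 37.3 and 37.4 in splenic ones (log2 against the other 3 types 2.95 ± 0.10, edgeR adjusted p = 5.27e-09). Microglia thus held the most Hps4 and the least Rab32. Microglial KO libraries had 339, 324 and 353 CPM of Hps4. Rilpl1, which binds Rab proteins phosphorylated by Lrrk2, had 136, 151 and 132 CPM in microglial WT libraries and 1.18, 1.15 and 1.63 in alveolar ones, and the alveolar contrast was −5.12 ± 0.20 (adjusted p = 1.71e-08). Lrrk2 itself was at 0, 1.24 and 1.40 CPM in WT microglia.

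Rab11fip1, an effector of the recycling Rab11 proteins, stood out in alveolar macrophages, with 270, 345 and 266 CPM in WT libraries, against 34.7, 17.1 and 18.7 in Kupffer, 3.17, 2.81 and 0.316 in microglial and 38.5, 25.2 and 20.1 in splenic ones (log2 4.73 ± 0.41, adjusted p = 5.58e-06). Unc13d, the priming factor that works with Rab27a in granule release, was lowest in alveolar macrophages at 6.76, 6.02 and 6.85 CPM (log2 −3.25 ± 0.21, adjusted p = 5.54e-07). Dennd2d, an exchange factor, was lowest in microglia at 1.88, 2.56 and 2.07 CPM and highest in splenic macrophages at 52.5, 51.5 and 60.7, where the contrast was 2.43 ± 0.12 (adjusted p = 2.19e-07). These genes were chosen from the lists by lowest p.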
